A study of Mus musculus with 24 samples.

Results

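Transcripts of 10 genes were followed in the nuclei of mouse heart muscle cells through the first 2 weeks after birth. The genes were chosen by name, with earlier results of these data known. They encode the estrogen-related receptors (Esrra, Esrrb and Esrrg), the fatty acid receptor PPARα (Ppara), the PGC1 coactivators (Ppargc1a and Ppargc1b), the thyroid hormone receptors (Thra and Thrb), the glucocorticoid receptor (Nr3c1) and the mineralocorticoid receptor (Nr3c2). All 10 passed the filter on low counts, out of 20368 genes tested. In controls all 10 had a positive fold change from postnatal day 1 (P1) to P7 and 8 of 10 a negative one from P7 to P14, most of them within the spread of replicates. Of all genes, 55% had a positive fold change at the first step and 35.2% at the second. Several signs of the 10 turned once the share of reads on no gene entered the fit. By edgeR the fall from P7 to P14 passed for Ppargc1a, Ppargc1b and Thra in the libraries labelled Casp2-depleted. The call of Thra was lost under all 11 other settings. With all 24 libraries, or with the share of reads on no gene in the fit, 0 of the 10 passed at this step. In controls none of the 10 passed in the main edgeR fit, while Esrrg and Ppargc1b passed once replicate numbers entered as a block. The interaction of genotype and day called 0 of the 10, so the genotypes were not shown to differ in these falls.

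The study collected ventricles of C57BL/6N mice at P1, P7 and P14, pooling 15, 6 and 2 hearts per sample, with both sexes used. Control animals were XMLC2(-)Casp2(fl/fl), which carry the floxed Casp2 alleles and no Cre, and Casp2-depleted animals were XMLC2(+)Casp2(fl/fl), whose Cre is driven in the heart by the XMLC2 promoter. Both genotypes share the floxed alleles, and the presence of Cre and the loss of Casp2, the protease of the PIDDosome complex, cannot be told apart. Nuclei were sorted for PCM1, a protein of the cardiomyocyte nuclear rim, and their RNA was sequenced from the 3′ end. There were 4 pools per day and genotype. The study set aside 3 libraries as being of low quality (replicate 1 of P1 control, replicate 3 of P14 control and replicate 1 of P14 Casp2-depleted), so 21 libraries entered every comparison unless stated.

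The 21 libraries held 891817 to 2924097 reads on genes and detected 7628 to 17770 genes. The targeted gene, Casp2, had at most 5 reads in any library. It was read in 3 of 4 control and 2 of 4 Casp2-depleted libraries at P7 and in none at P1 or P14, so these counts do not check the genotype labels. One further quantity moved with day. Of the reads placed on a gene, on no gene or ambiguously, the share on no gene was 60.7 to 73.9% in P1 control, 36.8 to 70.6% in P1 Casp2-depleted, 36.7 to 54.7% in P7 control, 34.3 to 64.3% in P7 Casp2-depleted, 63.7 to 75.2% in P14 control and 72.2 to 76.1% in P14 Casp2-depleted libraries. All 6 P14 libraries lay above the 4 P7 control libraries. A list of 10 cardiomyocyte markers, all of them read, summed to 60088 to 89761 CPM (reads scaled to an equal library total) in P7 control, 47816 to 69514 in P7 Casp2-depleted, 12638 to 47027 in P14 control and 16103 to 28174 in P14 Casp2-depleted libraries, and to 23432 to 54438 and 30502 to 80259 CPM in the P1 libraries of the 2 genotypes. The markers of the labelled cell type, taken as a sum, were therefore read in every library, at lower sums at P14 than at P7. A sum does not show each marker in each library. Fewer cardiomyocyte nuclei and less of these RNAs per nucleus cannot be told apart in bulk samples.

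Nuclear receptors are transcription factors that bind DNA directly, and most change their activity when a hormone or lipid occupies them. The estrogen-related receptors have no known natural hormone and depend on coactivators, above all PGC1α and PGC1β, with which they switch on genes of mitochondrial respiration. PPARα, bound to fatty acids and paired with RXR, drives genes of fatty acid uptake and oxidation. Thyroid hormone rises around birth and, through its receptors, shifts the heart from fetal to adult contractile proteins, while glucocorticoids prepare heart muscle for life outside the womb.

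Reads were counted by the study over whole genes, introns included. On GRCm39 the largest of the 10 was Esrrg (chr1:187340988-187947082, plus strand, 606 kb) and the smallest was Esrra (chr19:6888338-6899336, minus strand, 11.0 kb). Ppargc1a lies at chr5:51611592-51725068 (minus strand), Ppargc1b at chr18:61431195-61533735 (minus), Ppara at chr15:85618656-85687067 (plus), Thra at chr11:98629109-98661924 (plus), Thrb at chr14:4429815-4809435 (minus), Esrrb at chr12:86407887-86568409 (plus), Nr3c1 at chr18:39543598-39652474 (minus) and Nr3c2 at chr8:77625576-77971863 (plus). In total the 21 libraries held between 2773 reads of Nr3c1 and 26700 reads of Ppara. Genes on the opposite strand overlap some of them, and the strand setting of the counting was not given in the sources used here. The longest overlap is of Thrb with the long noncoding RNA Gm48321, over 90775 bases, which had 1664 reads against 5035 of Thrb. Esrrb overlaps Gm56558 over 45292 bases, with 964 reads against 4008. The end of Thra overlaps that of the clock gene Nr1d1 over 3173 bases, where Nr1d1 had 63 reads against 8830 of Thra. Without strand, reads of such partners cannot be told apart, and the values of Thrb and Esrrb are the most exposed to this.

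Levels below are CPM after scaling by TMM factors (a correction for library composition), in replicate order from 2 to 4 in P1 control and P14 Casp2-depleted, as replicates 1, 2 and 4 in P14 control, and from 1 to 4 elsewhere. Differences are log2 fold changes ± SE from edgeR's quasi-likelihood fit of the 6 groups, with p-values adjusted by Benjamini-Hochberg over 20368 genes. To be called, a gene needed an adjusted p below 0.05 together with a fold change beyond 1 in either direction on the log2 scale.

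Start regions were read from RefSeq's table on GRCm38.p6, which held 7 of the 10 genes with 12 starts. Shown are the 250 bases before the start of Ppargc1a, which fell at P14 in Casp2-depleted nuclei, of Ppara, which was not called there, and of Esrra, which was at 0 in 2 of 6 P14 libraries. They lie at chr5:51567726-51567975 (minus strand), chr15:85735526-85735775 (plus) and chr19:6921809-6922058 (minus). Capitals mark TGACG, the half-site of the cAMP-responsive factor CREB, in the first 2 sequences, and the GC box GGGCGG in the third, in either orientation.
Ppargc1a: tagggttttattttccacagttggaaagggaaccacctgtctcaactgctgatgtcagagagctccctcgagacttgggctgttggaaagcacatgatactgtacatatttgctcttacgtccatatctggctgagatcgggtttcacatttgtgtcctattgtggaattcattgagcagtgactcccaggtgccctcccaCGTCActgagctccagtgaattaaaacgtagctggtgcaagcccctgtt
Ppara: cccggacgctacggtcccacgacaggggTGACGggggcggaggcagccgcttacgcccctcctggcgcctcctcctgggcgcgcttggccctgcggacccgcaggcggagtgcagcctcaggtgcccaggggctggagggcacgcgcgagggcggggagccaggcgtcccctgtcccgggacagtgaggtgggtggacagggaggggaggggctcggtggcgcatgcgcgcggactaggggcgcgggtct
Esrra: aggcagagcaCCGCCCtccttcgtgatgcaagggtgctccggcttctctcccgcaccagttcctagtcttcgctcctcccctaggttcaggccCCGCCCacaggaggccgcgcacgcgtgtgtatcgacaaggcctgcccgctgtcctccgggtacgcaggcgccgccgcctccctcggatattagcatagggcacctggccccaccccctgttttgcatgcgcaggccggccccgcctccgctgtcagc
The match in Ppargc1a begins 49 bases before the start, and that in Ppara 222 bases before it. TGACG was found on either strand in 4 of the 12 regions and in 17.8% of all 32851 regions of this length, and GGGCGG in 6 of 12 and 32.7%. The half-site of the estrogen-related receptors, AAGGTCA, was in 0 of 12 and 4.08% of all. AGGTCA, the half-site it contains, which thyroid and PPAR receptors also use, was in 1 of 12 (Thrb) and 14.0%, and AGAACA, the half-site of the corticoid receptors, was in 2 of 12 (Esrrb and Thrb) and 16.1%. The E-box CACGTG was in 1 of 12 (Thrb) and 6.02%. These are matches of letters in a short window and show no binding.

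Of the coactivators, Ppargc1a encodes PGC1α, the inducible regulator of mitochondrial biogenesis. In controls it measured 53.6, 79.6 and 147 CPM at P1, 372, 614, 147 and 73.5 at P7 and 122, 72.0 and 36.4 at P14. In Casp2-depleted libraries it measured 331, 43.5, 75.2 and 238 CPM at P1, 426, 175, 175 and 33.7 at P7 and 32.4, 1.89 and 44.6 at P14. Replicates of one group differed widely at P7, and the P14 Casp2-depleted libraries met the P7 range only at P7 replicate 4 and the P1 range only at P1 replicate 2. Ppargc1a fell from P7 to P14 in Casp2-depleted nuclei (log2 fold change -2.94 ± 0.75 (SE), adjusted p = 0.00563) and was also lower there at P14 than at P1 (log2 fold change -2.71 ± 0.74 (SE), adjusted p = 0.0185). These comparisons share the P14 libraries. In controls the difference from P7 to P14 was -1.97 ± 0.71 (SE) with an adjusted p of 0.152, and that from P1 to P7 was 1.69 ± 0.70 (SE) with an adjusted p of 0.626, neither passing. From P1 to P7 in Casp2-depleted nuclei it was 0.24 ± 0.62 (SE) (adjusted p = 1). The fall from P7 to P14 was lost under 4 of 11 other settings. It did not pass in limma-voom with TMM (adjusted p = 0.257) or quantile normalization (0.305), nor with all 24 libraries (0.534). Nor did it pass in a fit with the no-gene read share as a term, at a log2 fold change of -0.43. The call was also lost without P7 Casp2-depleted replicate 1 (-2.17, adjusted p = 0.162) or without P14 Casp2-depleted replicate 3 (-2.16, adjusted p = 0.25). The difference from P1 did not pass without P1 Casp2-depleted replicate 1 or 4, P7 control replicate 2 or P14 Casp2-depleted replicate 3, with adjusted p-values of 0.254, 0.0852, 0.0557 and 0.297, and it was lost under 8 of 11 other settings, among them the replicate number as a block (adjusted p = 0.0656) and DESeq2 (0.0517).

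Ppargc1b encodes PGC1β, the close relative that sustains basal mitochondrial content. Control libraries held 114, 294 and 357 CPM at P1, 828, 753, 628 and 494 at P7 and 238, 98.3 and 326 at P14. Casp2-depleted libraries held 497, 231, 209 and 758 CPM at P1, 910.0, 987, 425 and 442 at P7 and 205, 74.4 and 65.5 at P14. In controls every P7 library lay above every P1 and P14 library, and in Casp2-depleted nuclei every P14 library lay below all those of P1 and P7. Ppargc1b fell from P7 to P14 in Casp2-depleted nuclei (log2 fold change -2.59 ± 0.56 (SE), adjusted p = 0.000404), a call that held with each of the 21 libraries left out in turn, at log2 fold changes of -3.30 to -2.12. It was lost under 3 of 11 other settings, namely limma-voom with quantile normalization (adjusted p = 0.0551), all 24 libraries (0.242) and a fit with the no-gene read share as a term (0.293). It was also below its P1 level there (log2 fold change -1.88 ± 0.54 (SE), adjusted p = 0.0305). The latter call was lost without P1 Casp2-depleted replicate 1 or 4 (adjusted p = 0.141 and 0.256), P7 control replicate 1 (0.0505), P7 Casp2-depleted replicate 2 (0.0534), P14 control replicate 2 (0.0538) or P14 Casp2-depleted replicate 3 or 4 (0.274 and 0.311). It was also lost under 10 of 11 other settings, the replicate block (0.0912) included, and kept in DESeq2 (0.0252). In controls the step from P7 to P14 was -1.62 ± 0.53 (SE) with an adjusted p of 0.0887, and with the replicate block it passed at -1.82 (adjusted p = 0.0303). From P1 to P7 it was 1.41 ± 0.53 (SE) in controls (adjusted p = 0.626) and 0.70 ± 0.47 (SE) in Casp2-depleted nuclei (adjusted p = 0.986).

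**Figure D1:**
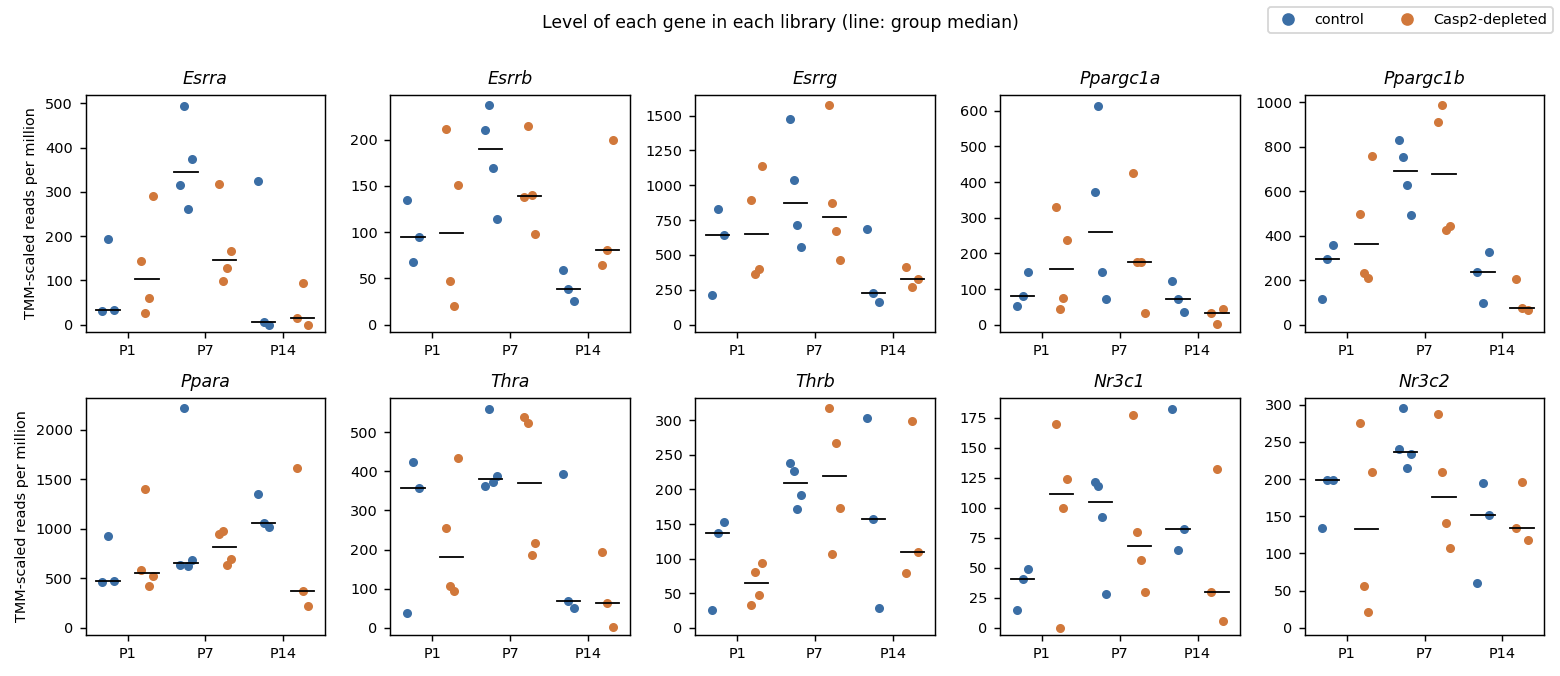
Level of each of the 10 genes in TMM-scaled CPM (vertical axes, linear, a scale of its own per gene) in each of 21 libraries, by day and genotype, with each point 1 library and each line the group median. Ppargc1b at P14 in Casp2-depleted nuclei, at 65.5 to 205 CPM, lies below all P7 libraries, while Ppara at P14 in Casp2-depleted nuclei spans 217 to 1611 CPM.

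Among the estrogen-related receptors, Esrrg, which is needed for the switch of the newborn heart to oxidative metabolism, was followed first. It stood at 209.5, 829 and 644 CPM at P1, 1476, 1036, 713 and 559 at P7 and 686, 227 and 166 at P14 in controls. The Casp2-depleted values were 896, 361, 399.5 and 1138 CPM at P1, 1578, 869.7, 674 and 467 at P7 and 413, 269 and 329.6 at P14. All 3 P14 Casp2-depleted libraries were below the 4 P7 libraries, and in controls only P14 replicate 1 reached the P7 range. The step from P7 to P14 was nearly equal in both genotypes, at -1.40 ± 0.48 (SE) in controls (adjusted p = 0.114) and -1.41 ± 0.48 (SE) in Casp2-depleted nuclei (adjusted p = 0.0857), and passed in neither. With the replicate number as a block it passed in controls (-1.67, adjusted p = 0.0193), as it did without P14 control replicate 1 (-2.27, adjusted p = 0.00807). In Casp2-depleted nuclei it passed without P7 replicate 4 (-1.63, adjusted p = 0.0425). From P1 to P7 the differences were 0.75 ± 0.47 (SE) (adjusted p = 0.648) in controls and 0.36 ± 0.43 (SE) (adjusted p = 1) in Casp2-depleted nuclei.

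Esrra encodes ERRα, the main partner of PGC1α at respiratory genes. Its control levels were 31.3, 194 and 32.6 CPM at P1, 315, 495, 262 and 373 at P7 and 324, 5.25 and 0 at P14. Its Casp2-depleted levels were 145, 27.4, 59.6 and 290.4 CPM at P1, 319, 99.1, 128 and 167 at P7 and 14.8, 93.3 and 0 at P14. The counts of 0 in replicate 4 of P14 control and of P14 Casp2-depleted allow up to 3.36 and 3.07 CPM (3 reads, counting error only). These limits are on CPM of total gene reads, without TMM scaling. Every P7 control library was above every P1 control library, and every P14 Casp2-depleted library was below every P7 one. No step passed, with 2.07 ± 1.65 (SE) from P1 to P7 in controls (adjusted p = 0.843), -1.71 ± 1.63 (SE) from P7 to P14 in controls (adjusted p = 0.635) and -2.30 ± 1.68 (SE) from P7 to P14 in Casp2-depleted nuclei (adjusted p = 0.5). One library decided the control step. P14 control replicate 1 held 459 reads of Esrra, where the other 2 held 7 and 0. Without it, the control step became -7.06 (adjusted p = 9e-07), a size that depends on the prior count since so few reads remained, and the Casp2-depleted step passed too (adjusted p = 0.0486). That library had the lowest share of reads on no gene of the P14 libraries, 63.7%, and the part of this share in the Esrra level was not tested for the library itself.

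Esrrb encodes ERRβ, best known from stem cells and placenta. Controls held 135, 67.6 and 95.3 CPM at P1, 210.2, 238, 169.5 and 115 at P7 and 59.4, 39.0 and 25.8 at P14. Casp2-depleted nuclei held 211, 47.0, 20.3 and 151 CPM at P1, 138, 215, 140.3 and 98.4 at P7 and 64.9, 80.7 and 199.9 at P14. All 3 P14 control libraries lay below the other control libraries and below the 3 P14 Casp2-depleted ones, the only place among the 10 genes where the genotypes did not overlap at P14. The tests did not pass, with -2.14 ± 0.80 (SE) from P7 to P14 in controls (adjusted p = 0.176) and 1.47 ± 0.81 (SE) between genotypes at P14 (adjusted p = 0.4).

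Ppara kept a shape of its own. In controls it was read at 464, 927 and 470.3 CPM at P1, 630.0, 2218, 623 and 682 at P7 and 1348, 1060.0 and 1016 at P14. In Casp2-depleted nuclei it was read at 584, 1402, 427 and 524 CPM at P1, 948, 977, 638 and 690.4 at P7 and 1611, 372 and 217 at P14. The 3 P14 control libraries were above all P1 control libraries, while among the P14 Casp2-depleted libraries replicate 2 was above every P1 and P7 library of its genotype and replicates 3 and 4 were below every one of them. The control differences were 0.74 ± 0.44 (SE) from P1 to P7 (adjusted p = 0.631) and 0.88 ± 0.47 (SE) from P1 to P14 (adjusted p = 0.431), so neither passed.

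Thra encodes TRα, the predominant thyroid hormone receptor of heart muscle. Control nuclei had 37.9, 423 and 358 CPM at P1, 363, 559.6, 374 and 388 at P7 and 392, 69.0 and 50.9 at P14. Casp2-depleted nuclei had 256, 106, 93.4 and 434 CPM at P1, 540.0, 522, 186 and 217 at P7 and 193, 63.7 and 3.28 at P14. At P14 the Casp2-depleted libraries overlapped P7 only between P14 replicate 2 and P7 replicate 3. Thra fell from P7 to P14 in Casp2-depleted nuclei (log2 fold change -2.08 ± 0.62 (SE), adjusted p = 0.0312). This call was lost under all 11 other settings, with adjusted p-values from 0.0517 with no filter on low counts to 1 with the share of reads on no gene in the fit, and 0.174 in DESeq2, 0.16 in limma-voom with TMM and 0.135 with the replicate block. It was also lost without any one of 7 libraries, with adjusted p-values up to 0.466. The 7 libraries were P1 Casp2-depleted replicate 1, P7 control replicate 2, P7 Casp2-depleted replicates 1 and 2, replicate 2 of P14 control and replicates 3 and 4 of P14 Casp2-depleted. The control step was -1.30 ± 0.60 (SE) (adjusted p = 0.304), and without P14 control replicate 1 it passed at -2.81 (adjusted p = 0.00878). From P1 to P7, Thra differed by 0.63 ± 0.58 (SE) in controls (adjusted p = 0.899) and by 0.72 ± 0.53 (SE) in Casp2-depleted nuclei (adjusted p = 1).

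Thrb, which encodes TRβ, was alone in separating P1 from P7 in both genotypes. Its control levels were 25.3, 137 and 153 CPM at P1, 238, 226, 172 and 193 at P7 and 304, 157 and 28.8 at P14, and its Casp2-depleted levels were 32.7, 80.7, 48.1 and 93.5, 318, 106, 267 and 173 and 79.0, 299 and 109 CPM on the same days. Every P7 library was above every P1 library of its genotype, and the P14 libraries covered both ranges. The step from P1 to P7 was 0.98 ± 0.69 (SE) in controls (adjusted p = 0.727) and 1.76 ± 0.64 (SE) in Casp2-depleted nuclei (adjusted p = 0.672), and passed in neither.

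The corticoid receptors bind the steroid hormones of the adrenal gland. Nr3c1 measured 15.1, 40.9 and 49.3 CPM at P1, 122, 118, 92.3 and 28.5 at P7 and 182, 64.5 and 82.7 at P14 in controls, and 169, 0, 99.5 and 124, 178, 80.1, 56.4 and 30.2 and 29.6, 132 and 5.90 CPM in Casp2-depleted nuclei. The 0 in P1 Casp2-depleted replicate 2 allows up to 2.44 CPM, again without TMM scaling. All P14 control libraries were above all P1 control libraries, with differences of 1.36 ± 0.94 (SE) from P1 to P7 (adjusted p = 0.718) and 1.65 ± 0.99 (SE) from P1 to P14 (adjusted p = 0.464). Nr3c2 measured 134, 199 and 199 CPM at P1, 240.5, 295, 215 and 233 at P7 and 60.1, 194 and 152 at P14 in controls, and 275, 56.8, 21 and 209, 287, 210.1, 141 and 107 and 135, 197 and 119 CPM in Casp2-depleted nuclei. The P7 control libraries stood above all P1 and P14 control libraries, by a narrow margin over P1, and the differences of 0.47 ± 0.65 (SE) from P1 to P7 (adjusted p = 0.986) and -0.86 ± 0.66 (SE) from P7 to P14 (adjusted p = 0.488) did not pass.

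**Figure D2:**
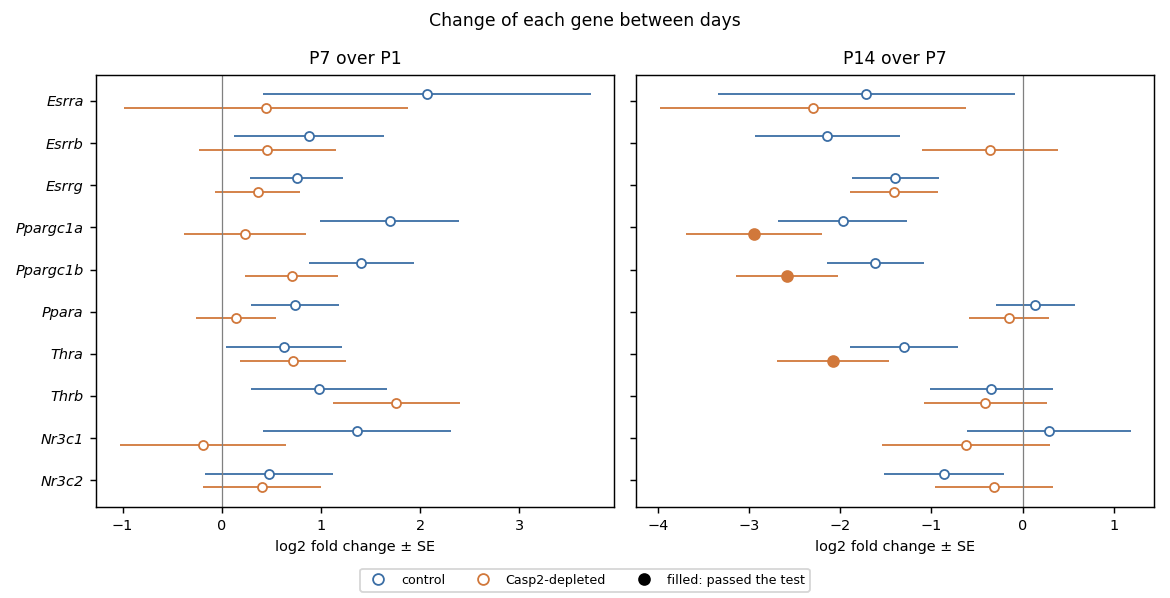
Log2 fold change ± SE (horizontal axes) of each of the 10 genes from P1 to P7 (left) and from P7 to P14 (right), in control and Casp2-depleted nuclei, with filled points for calls by edgeR. The filled points are Ppargc1a (-2.94), Ppargc1b (-2.59) and Thra (-2.08) from P7 to P14 in Casp2-depleted nuclei.

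The calls among the 10 were set beside those over all genes. The 20368 genes include many with few reads, since the filter asked for 10 reads in total. The 10 were each read in at least 18 of the 21 libraries, as 7059 genes were. Read depth was not matched here or in the shares of all genes given below. A larger share than that of all genes is therefore not shown to be particular to the 10 or to a list. From P7 to P14 in Casp2-depleted nuclei 3 of 10 fell by edgeR, where 2.83% of all genes were called and 2.82% were called lower, and the median log2 fold change was -1.02 for the 10 and -0.61 for all genes. At this step DESeq2 called 2 (Ppargc1a and Ppargc1b), limma-voom with TMM 1 (Ppargc1b), limma-voom with quantile normalization 0 and edgeR with all 24 libraries 0. From P1 to P14 there, 2 of 10 were lower by edgeR, against 1.94% called and 1.92% called lower, while DESeq2 called 1 (Ppargc1b) and limma-voom with either normalization 0. By edgeR, 0 of 10 were called from P7 to P14 in controls, where 1.88% of all genes were called, with 5 of 10 at an unadjusted p below 0.05 (3021 of 20368 over all genes) and 2 of 10 at a positive fold change, as 35.2% of all genes were (median -1.35, all genes -0.75). DESeq2 and limma-voom with TMM called 0 there too, limma-voom with quantile normalization called 1 (Ppara, whose edgeR fold change was positive), and the replicate block called 2. From P1 to P7 the 10 control fold changes were all positive (median 0.93, all genes 0.21), and 9 of 10 were in Casp2-depleted nuclei (median 0.43, all genes 0.07). Of all genes, 55% were positive at this step in controls and 52.5% in Casp2-depleted nuclei. There edgeR, DESeq2 and limma-voom with either normalization each called 0 of 10, with 2 and 1 at an unadjusted p below 0.05 by edgeR (1358 and 1508 of 20368 over all genes), and 0.00982% and 0.0196% of all genes were called by edgeR. From P1 to P14 in controls these tools called 0 of 10 with 0 at an unadjusted p below 0.05 by edgeR (2333 of 20368 over all genes), against 0.319% of all genes called by edgeR.

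Groups that did not overlap were counted in the same way. From P1 to P7 in controls, 4 of 10 were higher in every P7 library (Esrra, Nr3c2, Ppargc1b and Thrb), against 6.89% of all genes. In Casp2-depleted nuclei it was 1 of 10 (Thrb), against 1.48%. From P7 to P14, 3 of 10 were lower in every control library (Esrrb, Nr3c2 and Ppargc1b; 13.5% of all genes) and 3 of 10 in every Casp2-depleted library (Esrra, Esrrg and Ppargc1b; 10.9%). From P1 to P14, Nr3c1 and Ppara were higher in every control library, 2 of 10 against 1.52%, and Esrrb was lower, 1 of 10 against 6.41%. Ppargc1b was lower in every Casp2-depleted library, 1 of 10 against 4.78%.

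The edgeR test for any difference between days, averaged over the genotypes, called 4 of 10 against 8.0% of all genes. These were Ppargc1b (adjusted p = 9.76e-06), Ppargc1a (0.000451), Esrrg (0.00551) and Thra (0.0107). DESeq2 called 2 (Ppargc1a and Ppargc1b) and lost Esrrg (0.124) and Thra (0.239). Limma-voom with TMM called 4, with Esrra in place of Ppargc1a (0.103), and with quantile normalization 2 (Esrra and Ppargc1b). By edgeR the other 6 did not pass, from Thrb at 0.0985 to Nr3c1 at 0.874. The call of Esrrg was lost without any one of 5 libraries (replicate 1 of both P7 groups, replicates 2 and 4 of P14 control, replicate 3 of P14 Casp2-depleted), with adjusted p-values of 0.0512, 0.0655, 0.0813, 0.0543 and 0.0674. That of Thra was lost without P7 Casp2-depleted replicate 1 (0.0552), P14 control replicate 2 or 4 (0.0869 and 0.0576) or P14 Casp2-depleted replicate 3 or 4 (0.0721 and 0.116). Esrra moved the other way, from 0.458 to 5.66e-09 once replicate 1 of P14 control was set aside. When all 24 libraries were fitted, 0 of 10 were called here and in every other comparison by edgeR, the adjusted p-values of the 4 being 0.117 for Ppargc1b, 0.539 for Ppargc1a, 0.728 for Esrrg and 0.14 for Thra.

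Loss of Casp2 was compared with control on each day, the question the study put to these nuclei. The study, whose tests used limma, reported genes that differed between genotypes at P7. It also listed gene sets of fatty acid metabolism as lower there in Casp2-depleted cells, at an unadjusted p below 0.05. None of the 10 was called at P1, P7 or P14 or averaged over the days by edgeR, DESeq2 or limma-voom with either normalization. Of all genes, edgeR called 0.0% at P1, 0.0% at P7, 0.167% at P14 and 0.0147% on average, and of the 10 only Ppargc1a at P14 had an unadjusted p below 0.05. At P14 the difference of Casp2-depleted from control was -1.54 ± 0.73 (SE) for Ppargc1a (adjusted p = 0.388) and -0.94 ± 0.55 (SE) for Ppargc1b (adjusted p = 0.431), with overlapping libraries. Esrrb was the 1 of 10 that was higher in every Casp2-depleted library at P14, against 3.01% of all genes. At P7, Esrra differed by -1.02 ± 1.44 (SE) (adjusted p = 1). The interaction of genotype and day called 0 of 10 by edgeR, DESeq2 and limma-voom and 0.0295% of all genes by edgeR, with adjusted p-values from 0.505 for Ppargc1a to 1. The falls called in Casp2-depleted nuclei were thus not shown to differ from those in controls.

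The levels of several of the 10 were compared between the libraries with the lowest and the highest share of reads on no gene in each group. Levels between these ends did not always follow the share. In P14 control, Ppargc1b was at 238, 326 and 98.3 CPM at shares of 63.7, 72.5 and 75.2%. In all 6 groups, Esrrg, Ppara, Ppargc1a, Ppargc1b and Thra were lower in the library with the highest share than in the one with the lowest, and Esrra, Thrb and Nr3c1 were so in 5 groups and Esrrb and Nr3c2 in 4. With the share added to the fit beside the 6 groups, so that its slope rested on libraries of the same group, 4 of 10 passed at an adjusted p below 0.05, against 2.41% of all genes. Per 10 points of the share, Ppargc1a changed by -0.93 ± 0.20 (adjusted p = 0.000545), Thra by -0.77 ± 0.16 (0.000253), Esrrg by -0.64 ± 0.11 (2.09e-06) and Ppargc1b by -0.54 ± 0.13 (0.00308) on the log2 scale. They are the 4 genes that differed between days. Ppara had the flattest slope, -0.18 ± 0.17 (adjusted p = 0.663). In that fit, which was added after the data had been seen, no comparison of days or genotypes called any of the 10. From P7 to P14 in Casp2-depleted nuclei Ppargc1a then stood at -0.43, Ppargc1b at -1.28 and Thra at -0.25, with adjusted p-values of 1, 0.293 and 1. Since the P7 and P14 Casp2-depleted libraries do not overlap in this share, its part and that of the day cannot be told apart.

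**Figure D3:**
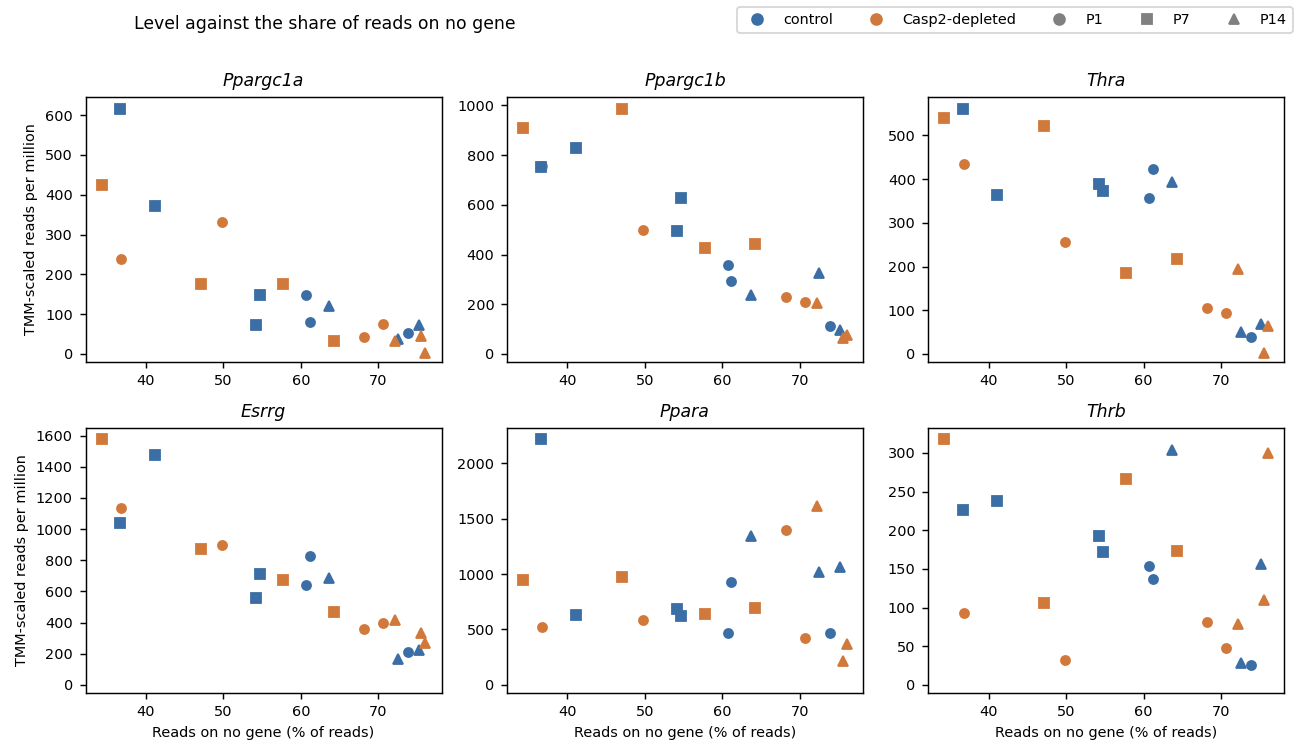
Level of 6 of the 10 genes in TMM-scaled CPM (vertical axes, linear) against the percentage of reads on no gene (horizontal axes) in 21 libraries, coloured by genotype and shaped by day. Ppargc1a, Ppargc1b, Thra and Esrrg are lower at higher shares, which run from 34.3% to 76.1%, while Ppara and Thrb scatter.

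Other cell types were checked by their markers beside these results. From P7 to P14 in Casp2-depleted nuclei, 8 fibroblast markers summed to 113 to 181 and then 202 to 379 CPM, 8 endothelial markers to 169.5 to 486 and then 613 to 691 CPM, with Egfl7 at 0 in all 21 libraries, and 7 mural cell markers to 271 to 488 and then 109 to 191 CPM. Fibroblast and endothelial sums were thus higher, and mural sums lower, in every P14 Casp2-depleted library than in any P7 one. In controls the P7 and P14 ranges overlapped. They were 78.9 to 213 and 174 to 328 CPM for fibroblast and 166 to 331 and 141 to 1277 CPM for endothelial markers. For mural markers they were 243 to 376 and 67.2 to 376 CPM. The 7 macrophage markers, with Cd68 at 0, summed to 42.0 to 303 CPM over the 21 libraries, the 6 erythroid markers to at most 109.6, the 4 epicardial markers to at most 124 and the 3 Schwann cell markers to at most 124 CPM. The part of these sums in the levels of the 10 genes was not tested.

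Levels of different genes were compared per kb of gene. Over the 21 libraries the order was Esrra at 14.6 ± 13.3 CPM per kb (SD, n = 21), Ppara at 12.4 ± 7.00, Thra at 8.17 ± 5.52, Ppargc1b at 4.15 ± 2.79, Ppargc1a at 1.38 ± 1.39 and Esrrg at 1.10 ± 0.657. Esrrb, Nr3c1, Nr3c2 and Thrb followed, between 0.748 and 0.406 CPM per kb. This order pools groups that differ. Esrra led in both P7 groups and in P1 Casp2-depleted, while Ppara led in P1 control, where Esrra came after Thra, and in both P14 groups, at 10.7 against 3.28 CPM per kb in Casp2-depleted nuclei. Ppargc1a was the last of the 10 in P14 Casp2-depleted nuclei, at 0.232 CPM per kb. Most neighbours changed places between libraries, with Esrra above Ppara in 12 of 21, Ppara above Thra in 14 and Ppargc1a above Esrrg in 13. Clear gaps lay between Thra and Ppargc1b (19 of 21) and between the coactivators, with Ppargc1b above Ppargc1a in 21 of 21. Reads came from 3′ ends, so a level per length is a rough scale. Per kb of merged exons the order was led by Ppara (129), Esrrg (107) and Ppargc1b (73.6 CPM per kb), with Esrra behind Thra.

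Each pair of the 10 genes was compared over the 21 libraries. As a description, 44 of their 45 pairs had a positive Pearson correlation of log2 CPM, with a median of 0.41, and all share the libraries and their depth and reads on no gene. No such median was taken over all genes, so a likeness particular to the 10 is not shown. The 3 genes closest to each of the 10 lay outside the set. The closest pairs were Ppargc1b with Thra (r = 0.82), Esrra with Thra (r = 0.82) and Esrrg with Ppargc1b (r = 0.80). The lowest was Esrrb with Ppara (r = -0.17). Among 7059 genes read in at least 18 of the 21 libraries, those most like Esrrg included Ppp1r12b (r = 0.96) and Actn2 (r = 0.95). Most like Thra were Nemf (r = 0.96), Bod1l (r = 0.94) and Thoc2 (r = 0.94). Ppargc1b was closest to Ggnbp2 (r = 0.95), Ezh2 (r = 0.95) and Tpm1 (r = 0.94), and Ppargc1a to Zbtb20 (r = 0.90), Kmt2e (r = 0.88) and Dnm2 (r = 0.88). Ppara was closest to Fhl2 (r = 0.88), Alpk3 (r = 0.84) and Tgfbr3 (r = 0.84). The highest values for Esrra were with Gpr107 (r = 0.94), Lman1 (r = 0.91) and Bod1l (r = 0.91), for Esrrb with Lcor (r = 0.88), Tnrc6c (r = 0.86) and Hspa9 (r = 0.85), for Nr3c1 with Ptpa (r = 0.84), H3f3a (r = 0.84) and Abhd4 (r = 0.83) and for Nr3c2 with Rplp1 (r = 0.84), Lrrc1 (r = 0.82) and Tnrc6c (r = 0.81). Thrb had the lowest best match, with Rab12 (r = 0.78), Ankrd52 (r = 0.77) and Eya2 (r = 0.77).

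**Figure D4:**
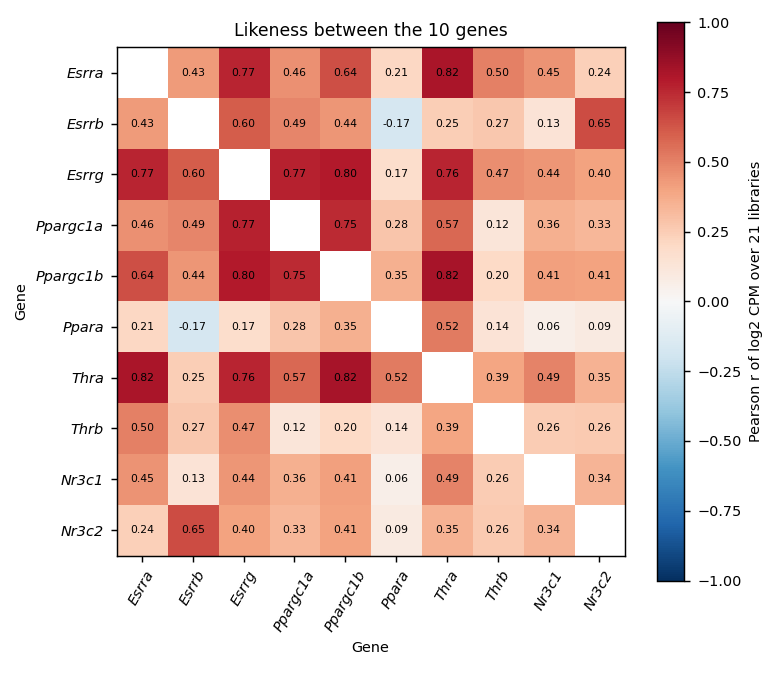
Pearson correlation of log2 CPM between each pair of the 10 genes over 21 libraries (colour and printed value, rows and columns are genes). The values run from -0.17 for Esrrb with Ppara to 0.82 for Ppargc1b with Thra.

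The genes that work with the 10 were described next, from lists drawn up by function with earlier results of these data known. Calls of list genes are from the main edgeR fit, and the other settings were not examined for them. Over all genes, calls from P7 to P14 fell from 382 to 38 in controls once reads on no gene entered the fit. In Casp2-depleted nuclei they fell from 577 to 147. With all 24 libraries they were 35 and 124. Of 17 RXR partners and coregulators, edgeR called 3 lower from P7 to P14 in controls (17.6% of the list against 1.87% of all genes) and 2 in Casp2-depleted nuclei (11.8% against 2.82%). The corepressor Ncor1, which holds thyroid hormone receptors silent without hormone, fell in both genotypes, from 1115–4658 to 459.8–851 CPM in controls and from 1683–4032 to 437–799.6 CPM in Casp2-depleted nuclei. The acetyltransferase Crebbp fell in both, from 475–983 to 41.3–167 CPM and from 275–462 to 43.5–109 CPM. Med1, the Mediator subunit that receptors bind, fell in controls, from 126–253 to 0–21 CPM. The coactivators Ncoa1 and Ncoa2, also among the 4 most read of the list, were not called at that step, with 281–565 and 185–649.6 CPM for Ncoa1 in controls.

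Of 24 related nuclear receptors, edgeR called none from P7 to P14 in controls, with 3 at an unadjusted p below 0.05, and 1 in Casp2-depleted nuclei (4.17% against 2.83% of all genes), Rara, a retinoic acid receptor. It had no read in the 3 P14 Casp2-depleted libraries, which over the group allows up to 0.929 CPM, and was at least 65.3-fold lower than at P7 (477 reads). Both values are on total gene reads without TMM scaling. The most read were Rora, at 933–1883 CPM in P7 control and 784–1768 CPM in P14 control libraries, and Rarb, Esr1 and Ppard. None of these 4 was called between days by edgeR.

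Among 30 targets of the estrogen-related receptors and PGC1 in energy metabolism, edgeR called 3 lower from P7 to P14 in controls (beside 1.87% of all genes) and 6 in Casp2-depleted nuclei (20.0% against 2.82%). The test for any day difference called 8 (26.7% against 8.0%). Vegfa, an angiogenic factor under PGC1α control, fell in both, from 419.9–554 to 27.8–79.2 CPM in controls and from 222–542 to 62.3–86.0 CPM in Casp2-depleted nuclei. So did Idh3a, a subunit of isocitrate dehydrogenase, with no read in any P14 library against 27.7–74.2 and 14.4–64.5 CPM at P7. Ogdh of the citric acid cycle fell in controls, from 130.5–345 to 0–54.4 CPM. In Casp2-depleted nuclei citrate synthase (Cs) fell from 235–529 to 40.3–122 CPM and the mitochondrial creatine kinase Ckmt2 from 209–535 to 0–177 CPM, while the complex II subunit Sdha and the ATP synthase subunit Atp5f1b, also called, had no read at P14. The bound for Sdha was at least 49.3-fold lower and that for Atp5f1b at least 40.7-fold lower, both without TMM scaling.

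Of 28 tested PPARα targets in fatty acid use (29 listed), edgeR called 2 lower from P7 to P14 in each genotype (7.14%, against 1.87% of all genes in controls and 2.82% in Casp2-depleted nuclei), and 10 differed between days (35.7% against 8.0%). Acsl1, which activates long-chain fatty acids, fell in both, from 138–541 to 0–60.8 CPM in controls and from 83.7–413 to 24.7–67.5 CPM in Casp2-depleted nuclei. The medium-chain dehydrogenase Acadm fell in Casp2-depleted nuclei, from 31.6–97.2 to 0–1.89 CPM. Fabp3, the heart fatty acid binding protein and the most read of the list, measured 494–1164 and 3.00–275 CPM in controls and was not called at that step. The list median from P7 to P14 was -1.94 in controls and -2.36 in Casp2-depleted nuclei, beside -0.75 and -0.61 over all genes. Ppara itself was not called by edgeR.

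Thyroid hormone handling and targets, 22 tested of 26 listed, held, of the 6 lists, the largest share of genes differing between days, 13 of 22 (59.1% against 8.0% of all genes). Ryr2, Myh6 and Pln were also among the cardiomyocyte markers, whose sum was lower at P14 than at P7. The part of that lower sum, and of read depth, in this share was not tested. From P7 to P14 edgeR called 3 lower and 1 higher in controls (18.2% against 1.88% of all genes) and 5 lower in Casp2-depleted nuclei (22.7% against 2.83%). Ryr2, the calcium release channel, fell in both genotypes, as did the sodium-calcium exchanger Slc8a1, from 3804–7419.6 to 821–1939.7 CPM in controls and from 3026–8172 to 352–809 CPM in Casp2-depleted nuclei. The calcium pump Atp2a2, a classic thyroid hormone target, fell in Casp2-depleted nuclei, from 279–1027 to 71.9–228 CPM, with its inhibitor Pln and the adrenergic receptor Adrb1. The potassium channel Kcnd3 rose in controls, from 40.6–121 to 252–477 CPM. The sodium pump subunit Atp1b1 fell there to no read. Adult myosin Myh6, which thyroid hormone induces, and fetal myosin Myh7, which it represses, both differed between days, with Myh6 at 1499.7–7424, 12361–21109.8 and 1131–6112 CPM and Myh7 at 73.5–174, 13.5–93.6 and 7.59–39.6 CPM at P1, P7 and P14 in controls.

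Of 20 tested genes of corticoid handling and response (24 listed), 1 was called from P7 to P14 by edgeR (beside 2.83% of all genes), the receptor chaperone Hsp90ab1 in Casp2-depleted nuclei, from 862–1775 to 215–492 CPM. Hif3a, a glucocorticoid-responsive member of the hypoxia factor family, differed between days, with 54.8–116 CPM at P1 and 2.16–33.0 CPM at P7 in controls. Fkbp5 and Zbtb16, well-known glucocorticoid targets, were not called, with 18.8–85.5 and 41.0–166 CPM for Fkbp5 at P7 and P14 in controls. In the 6 lists edgeR called no gene between genotypes on any day, with 6 of 30 energy metabolism targets, 5 of 28 PPARα targets and 8 of 22 thyroid genes at an unadjusted p below 0.05 at P14, beside 2613 of all 20368 genes. At P7, 26 of the 28 PPARα targets were lower in Casp2-depleted nuclei and 2 higher (median -0.60, all genes -0.03). There 0 of the 28 had an unadjusted p below 0.05. At P1 the direction was the opposite, with 23 higher and 5 lower (median 0.91, all genes 0.08). At P14, 20 were lower and 5 higher (median -0.83, all genes 0).

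**Figure D5:**
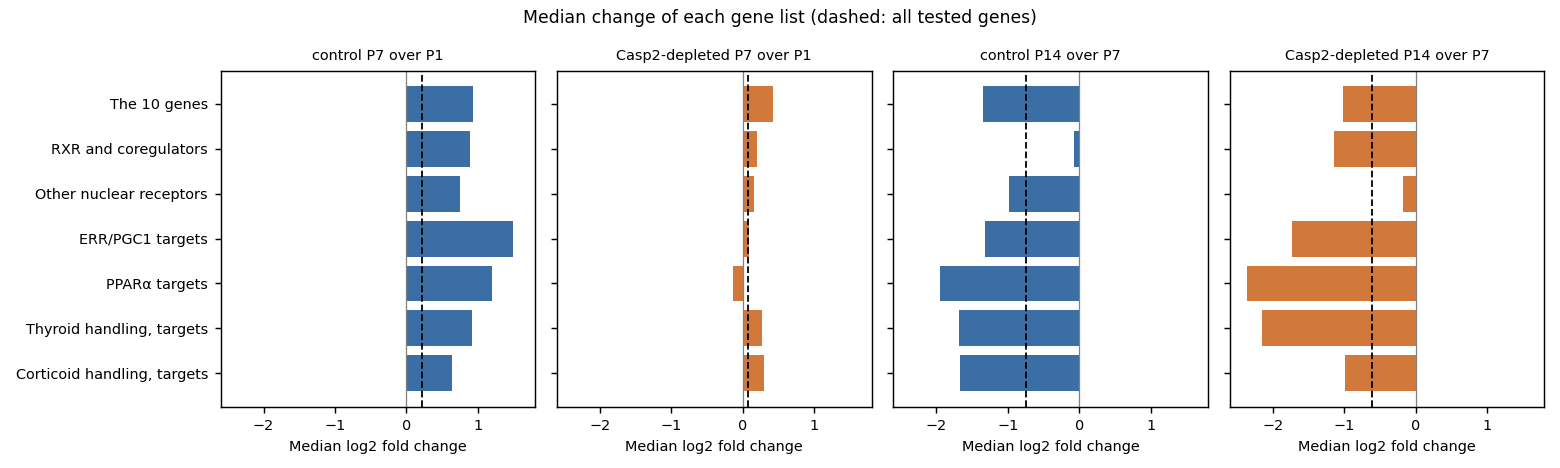
Median log2 fold change of the 10 genes and of 6 gene lists (bars, horizontal axes) for the steps from P1 to P7 and from P7 to P14 in each genotype, with a dashed line at the median of all tested genes. From P7 to P14 in Casp2-depleted nuclei the bars run from -0.17 for other nuclear receptors to -2.36 for PPARα targets, beside -0.61 for all genes.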

How the data were processed

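The authors trimmed reads with cutadapt 4.0, aligned them with STAR 2.6.1e to GRCm39 and counted reads per gene over introns and exons with HTSeq 2.0.3. The deposited values are raw counts for 56923 gene identifiers in 24 libraries. Strand setting and molecular identifiers are not given in the sources used here. Library sizes leave out reads on no gene and ambiguous reads. Names and positions came from GENCODE vM39 on GRCm39, which names 56236 identifiers.

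The 21 libraries kept by the study were fitted in edgeR 4.0.16 (R 4.3.3) with TMM factors and a robust quasi-likelihood fit of 6 groups, on genes holding 10 reads or more over all libraries and read in 3 or more of them. Calls needed a p-value below 0.05 after Benjamini-Hochberg adjustment together with a log2 fold change beyond 1 in either direction, or at the adjusted p alone for tests over several days. The tests, run on simulated data first, missed most of the changes put in, so a gene that was not called is not shown to be unchanged. Named are the 10 genes, called genes of 6 lists and the 4 most read of each list, and the 3 genes most like each of the 10 (log2 CPM, prior count 2). Values of 3 genes that this rule names are not reported here. The members and lists were chosen with earlier results of these data known.

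Names of the deposited files call the replicate number a batch. As a check of pairing, each library's deviation from its group mean was correlated with that of the other genotype on the same day. Libraries of the same number gave -0.06 to 0.21 (9 pairs, median 0.05) over 16362 genes, and those of other numbers gave -0.15 to 0.11 (28 pairs, median -0.01). A fit with this number as a block was an alternative. The others were edgeR's filterByExpr, no filter, RLE size factors, all 24 libraries, equal depth, DESeq2 1.42.0, limma-voom (limma 3.58.1) with TMM or quantile normalization, only the compared groups, the adjusted p alone, and each library left out. A fit with no robust prior, and a fit with reads on no gene as a covariate (their share per library), were added after the data were seen.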

Additional observations from a re-analysis of the deposited data

Results flagged for a closer look

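In 3 of 30 groups of 4 libraries, 1 library stood apart from the other 3 by Dixon's criterion. For normally distributed values, chance alone meets it in about 1 of 20 groups. It was applied to CPM without logs, and the same libraries recur for every gene, so that rate is not shown to hold here. Ppara in P7 control replicate 2 was at 2218 CPM, with the next library at 682 CPM. In P1 Casp2-depleted replicate 2 it was at 1402 CPM, with the next at 584 CPM. Thra in P7 control replicate 2 was at 559.6 CPM, with the next at 388 CPM.

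The 3 libraries left out by the study held values of these genes above the kept control libraries of their day in 13 of 30 cases, on CPM of total gene reads without TMM scaling. P1 control replicate 1, with 9.21% of reads on no gene, had Esrra at 308 CPM (control maximum 179), Esrrg at 984 CPM (control maximum 762), Ppargc1a at 489.6 CPM (control maximum 142), Ppargc1b at 641 CPM (control maximum 345), Thra at 452 CPM (control maximum 389), Nr3c1 at 83.7 CPM (control maximum 47.7) and Nr3c2 at 266 CPM (control maximum 192). P14 control replicate 3, with 16.1% and 2049 detected genes, had Esrrg at 2361 CPM (control maximum 758), Ppara at 3921 CPM (control maximum 1500.3) and Ppargc1a at 319.8 CPM (control maximum 134). P14 Casp2-depleted replicate 1, with 64.1% and 4285 detected genes, had Esrrb at 268 CPM (control maximum 65.7), Ppargc1a at 329.6 CPM (control maximum 134) and Ppargc1b at 502 CPM (control maximum 481). Ppargc1a exceeded the kept control libraries in all 3.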

How the results depend on the processing

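Counts of called genes by edgeR were 2 (control P7 over P1), 382 (control P14 over P7), 65 (control P14 over P1), 4 (Casp2-depleted P7 over P1), 577 (Casp2-depleted P14 over P7), 396 (Casp2-depleted P14 over P1), 0 (genotype at P1), 0 (genotype at P7), 34 (genotype at P14), 3 (genotype averaged over days), 1630 (any day difference) and 6 (interaction). The following counts lay more than 1.5 times away, and the cause was not tested. With filterByExpr there were 1 (control P7 over P1), 231 (control P14 over P7), 31 (control P14 over P1), 0 (Casp2-depleted P7 over P1), 244 (Casp2-depleted P14 over P1), 3 (genotype at P14), 0 (genotype averaged over days), 1078 (any day difference) and 0 (interaction). With no filter there were 1 (control P7 over P1), 15 (genotype at P14) and 1 (genotype averaged over days). With RLE size factors there were 1 (Casp2-depleted P7 over P1) and 1 (genotype averaged over days). With all 24 libraries there were 0 (control P7 over P1), 35 (control P14 over P7), 14 (control P14 over P1), 0 (Casp2-depleted P7 over P1), 124 (Casp2-depleted P14 over P7), 61 (Casp2-depleted P14 over P1) and 1 (genotype averaged over days). At equal depth there were 11 (genotype at P14). With the replicate block there were 1 (control P7 over P1), 13 (genotype at P14), 1 (genotype averaged over days), 1068 (any day difference) and 2 (interaction). Limma-voom with TMM gave 49 (control P7 over P1), 1150 (control P14 over P7), 205 (control P14 over P1), 8 (Casp2-depleted P7 over P1), 49 (genotype at P1), 116 (genotype at P14), 0 (genotype averaged over days) and 10 (interaction). Limma-voom with quantile normalization gave 93 (control P7 over P1), 702 (control P14 over P7), 126 (control P14 over P1), 12 (Casp2-depleted P7 over P1), 610 (Casp2-depleted P14 over P1), 63 (genotype at P1), 1 (genotype at P7), 149 (genotype at P14), 0 (genotype averaged over days) and 10 (interaction). DESeq2 gave 88 (control P7 over P1), 1033 (control P14 over P7), 520 (control P14 over P1), 46 (Casp2-depleted P7 over P1), 1186 (Casp2-depleted P14 over P7), 1185 (Casp2-depleted P14 over P1), 105 (genotype at P1), 25 (genotype at P7), 651 (genotype at P14), 219 (genotype averaged over days) and 29 (interaction). With only the compared groups there were 24 (control P7 over P1), 28 (control P14 over P1), 1 (Casp2-depleted P7 over P1), 185 (Casp2-depleted P14 over P1) and 1 (genotype at P14). With no robust prior there were 10 (control P7 over P1), 7 (genotype averaged over days) and 13 (interaction). With reads on no gene as a covariate there were 0 (control P7 over P1), 38 (control P14 over P7), 147 (Casp2-depleted P14 over P7), 95 (Casp2-depleted P14 over P1), 9 (genotype averaged over days) and 274 (any day difference). Leaving out 1 library gave 0 to 4 (control P7 over P1), 176 to 502 (control P14 over P7), 29 to 143 (control P14 over P1), 1 to 13 (Casp2-depleted P7 over P1), 258 to 733 (Casp2-depleted P14 over P7), 175 to 552 (Casp2-depleted P14 over P1), 0 to 0 (genotype at P1), 0 to 0 (genotype at P7), 7 to 166 (genotype at P14), 1 to 32 (genotype averaged over days), 879 to 1653 (any day difference) and 4 to 41 (interaction).

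Of the 10 genes, 54 fold changes or tests are given. Without 1 library, 1094 of 1134 recomputed values kept direction and call, 30 lost the call, 6 gained it and 4 turned direction. Under the other settings 527 of 594 kept both, 51 lost the call, 5 gained it and 11 turned. With reads on no gene as a covariate the sign of the log2 fold change turned, to -0.36 for Esrrg (control P7 over P1), -0.29 for Ppargc1a (control P7 over P1), -0.48 for Thra (control P7 over P1), -0.46 for Nr3c2 (control P7 over P1), 0.039 for Esrrg (control P14 over P7), 0.49 for Ppargc1a (control P14 over P7), 0.18 for Thra (control P14 over P7), 0.49 for Nr3c2 (control P14 over P7), -0.34 for Ppargc1a (Casp2-depleted P7 over P1) and 0.24 for Esrrg (Casp2-depleted P14 over P7). With limma-voom with quantile normalization it turned to -0.010 for Ppara (control P7 over P1). It turned without P1 Casp2-depleted replicate 2, to -0.085 for Ppargc1a (Casp2-depleted P7 over P1). It turned without P1 Casp2-depleted replicate 3, to -0.012 for Ppargc1a (Casp2-depleted P7 over P1). It turned without P7 Casp2-depleted replicate 1, to -0.081 for Esrrg (Casp2-depleted P7 over P1) and -0.45 for Ppargc1a (Casp2-depleted P7 over P1). Over all libraries left out, the Casp2-depleted step from P1 to P7 ranged from -0.081 to 0.66 for Esrrg and from -0.45 to 0.72 for Ppargc1a. None of these was called, in either fit. The replicate block called Esrrg and Ppargc1b from P7 to P14 in controls, lost Thra from P7 to P14 and Ppargc1a and Ppargc1b from P1 to P14 in Casp2-depleted nuclei, and changed no other call of the 10. Mean levels on plain CPM moved by less than the replicate SD in 53 of 60 cases, and with the left-out libraries in 23 of 30. At no more than 2924097 reads on genes per library and 3 or 4 pools per group, counts of 0 in Esrra and Nr3c1 limit a level only to 3 reads.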
